A study of Homo sapiens with 8 samples.

Results

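The RNA-seq library of NCM460 cells was set against the library of untreated HCT116 cells, gene by gene. NCM460 is a cell line that the labels give as normal human intestinal epithelium, and HCT116 is an established line of colorectal cancer (CRC). A gene entered the comparison when it lay on an autosome and at least 50 reads had been counted on it in either library, which held for 13890 of the 54261 genes in the table. These genes held 94.7% of the counted reads in NCM460 and 94.2% in HCT116. Each line was sequenced once, so every difference below is a difference between 1 library and another, without a replicate check and without a test.

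The series compared normal intestinal epithelial lines (NCM460 and HIEC6) with CRC lines (DLD1, HCT116 and HCT8) by sequencing total RNA depleted of ribosomal RNA. It also holds a library of each CRC line under hypoxia, which makes 8 libraries in all. NCM460 and HCT116 were both untreated, were both labelled as passage P5 and shared 1 culture medium, DMEM with fetal bovine serum. Oxygen level and duration of the hypoxia treatment are not given in the sources used here.

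As background, cell lines from different donors carry different inherited variants, and a tumor line adds gains and losses of chromosomes and silenced genes of its own. Such differences leave line-specific marks in RNA, among them genes that are silent in one line and active in another and chromosomes whose genes are all shifted together. HCT116 is widely used as a model of epithelial tumor cells.

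The total count was 49188217 in NCM460 and 52242906 in HCT116, within the range of 45519306 to 57374239 over the 8 libraries. On library sizes scaled by TMM (trimmed mean of M values), 50 counts corresponded to 1.03 CPM (counts scaled to a common library total) in NCM460 and 0.953 CPM in HCT116, and 3 counts to 0.0618 and 0.0572 CPM. The NCM460 library carries 2 run labels, whereas the other untreated libraries carry 1, and the second of these labels is shared with the hypoxia libraries of DLD1 and HCT116. The labels describe the RNA source as prefrontal cortex in the extraction text, so markers of other tissues were counted. Of 12 neural markers, 4 reached 50 counts in either library. They were SYT1 (3383 counts in NCM460 and 6693 in HCT116), MBP (4351 and 3835), MAP2 (656 and 657) and GAD1 (440 and 380). SYT1 had 81, 4 and 3 counts in HIEC6, DLD1 and HCT8, whereas MBP had 614, 3639 and 4013. OLIG2 and STMN2, markers of oligodendrocytes and of neurons, had 0 counts in NCM460 and HCT116. Of 10 blood and endothelial markers, only the endothelial gene VWF reached 50 counts, and the hemoglobin genes HBB and HBA1 had 0 counts in both. The epithelial genes EPCAM (14807 and 14373 counts), CDH1 (7231 and 6602 counts) and KRT8 (91699 and 90733 counts) were abundant in NCM460 and HCT116. The differentiated intestinal genes LGALS4, FABP1 and CDX1 had 0 counts in both, and MUC2, the goblet cell mucin, had 0 counts in NCM460 and 1 in HCT116.

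The library labelled NCM460 lay far closer to HCT116 than to HIEC6, the other line labelled normal. Of the 13890 genes, 1057 (7.61%) were at least 2-fold apart between NCM460 and HCT116, and the median absolute log2 ratio was 0.256, which is a 1.19-fold difference. In the 9 other pairs of untreated lines the share of genes at least 2-fold apart ran from 23.9% (DLD1 and HCT8) to 48.4% (NCM460 and HIEC6), and the median absolute log2 ratio from 0.463 to 0.959. Libraries of the same line with and without hypoxia were 7.54% (DLD1), 15.3% (HCT8) and 25.5% (HCT116) apart by the same measure. NCM460 was therefore as far from untreated HCT116 as untreated DLD1 was from DLD1 under hypoxia, and nearer to it than HCT116 under hypoxia was.

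Genes that were silent on one side separated the pairs more sharply. Only 18 genes had 3 or fewer counts in one library and 50 or more in the other between NCM460 and HCT116, whereas the 9 other pairs of untreated lines had 311 to 1166 such genes. The hypoxia and untreated libraries of a line had 15 (DLD1), 17 (HCT8) and 41 (HCT116). The difference between NCM460 and HCT116 was still larger than counting error. Over the 7263 genes with 1000 or more counts in both libraries, the robust standard deviation of the log2 ratio was 0.275, against 0.0369 from counting alone.

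**Figure D1:**
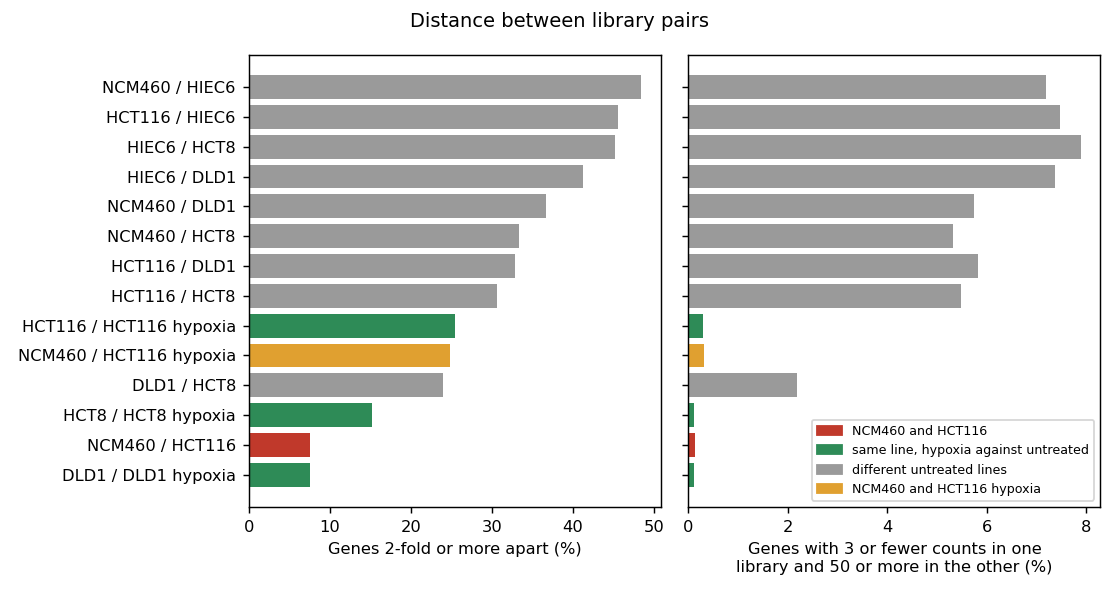
Share of genes at least 2-fold apart (left, in percent) and share of genes with 3 or fewer counts in one library and 50 or more in the other (right, in percent), 1 bar per pair of libraries. NCM460 and HCT116 (red, 7.61% and 18 genes) lie among the pairs of one line with and without hypoxia (green) and below every other pair of untreated lines (grey).

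The chromosomes showed no comparable shift. The median log2 ratio of NCM460 over HCT116 ranged from -0.0433 on chromosome 11 to 0.0521 on chromosome 18, with a standard deviation over the 22 autosomes of 0.0218. In the 9 other pairs of untreated lines this standard deviation was 0.122 to 0.432. NCM460 exceeded HIEC6 by a median log2 ratio of 1.11 on chromosome 18, 0.684 on chromosome 8 and 0.634 on chromosome 13, and the same 3 medians against HCT116 were 0.0521, 0.0226 and 0.00354. No autosome as a whole was thus shifted between NCM460 and HCT116 by more than 0.0521 on the log2 scale.

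**Figure D2:**
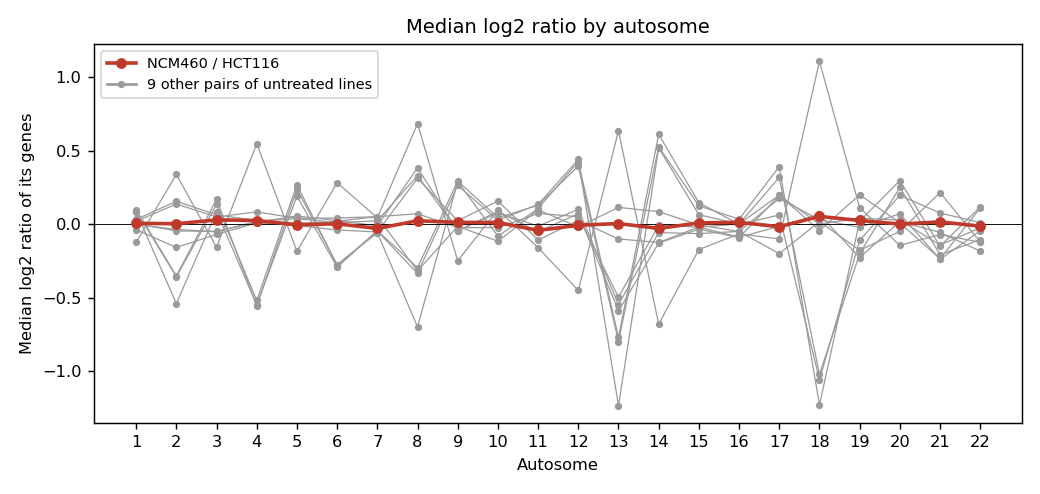
Median log2 ratio of the genes on each autosome for NCM460 over HCT116 (red) and for the 9 other pairs of untreated lines (grey), 1 point per autosome and pair. The red line stays between -0.0433 and 0.0521, while grey points reach 1.11 on chromosome 18.

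Genes that mark a single line were then followed. With HCT116 set against HIEC6, DLD1 and HCT8, and NCM460 left aside, 154 genes had 50 or more counts in HCT116 and 3 or fewer in each of the other lines. NCM460 had 50 or more counts on 128 of these (83.1%) and 3 or fewer on 2, TNFSF18 and GGT5. HCT116 under hypoxia, a second library of the same line, had 50 or more counts on 127 of the 154 (82.5%). Conversely, 86 genes were at 3 or fewer counts in HCT116 and at 50 or more in the other lines. NCM460 was at 3 or fewer counts on 52 of them (60.5%) and at 50 or more on 4, LAMA1, OLR1, BMP2 and TGFBI. HCT116 under hypoxia was at 3 or fewer counts on 50 of the 86 (58.1%) and at 50 or more on 1. Of 181 genes that were on in HIEC6 only, NCM460 had 50 or more counts on 0 and 3 or fewer on 143. For scale, of 143 genes on in DLD1 and off in HIEC6, HCT116 and NCM460, HCT8 had 50 or more counts on 82 (57.3%).

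A named mark, picked after its values were seen, showed the same. HBE1, the embryonic beta-like globin gene, had 3551 counts in NCM460 and 5765 in HCT116, and 0, 6 and 0 in HIEC6, DLD1 and HCT8. What sets the closeness of the libraries labelled NCM460 and HCT116 was not tested.

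Against this close background, 547 genes (3.94%) were at least 2-fold higher in NCM460 and 510 (3.67%) at least 2-fold higher in HCT116. At least 4-fold differences were found for 121 and 103 genes, and at least 8-fold for 46 and 31. The exact 95% counting interval of the ratio (Clopper-Pearson) lay wholly beyond 2-fold for 297 genes higher in NCM460 and 252 higher in HCT116. These intervals and the floor of 3 counts cover counting error only, since reads are not independent molecules. The share at least 2-fold apart was 30.5% among genes with a mean count of up to 100, 12.2% from 100 to 300, 6.12% from 300 to 1000, 1.62% from 3000 to 10000, and 2.78% above 10000. Among the 11334 genes with 200 or more counts in the higher library, 241 were at least 2-fold higher in NCM460 and 220 in HCT116. At the limit of inclusion, AKR1C1 entered with 50 counts in NCM460 and 18 in HCT116, and ANP32C stayed out with 49 and 13.

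**Figure D3:**
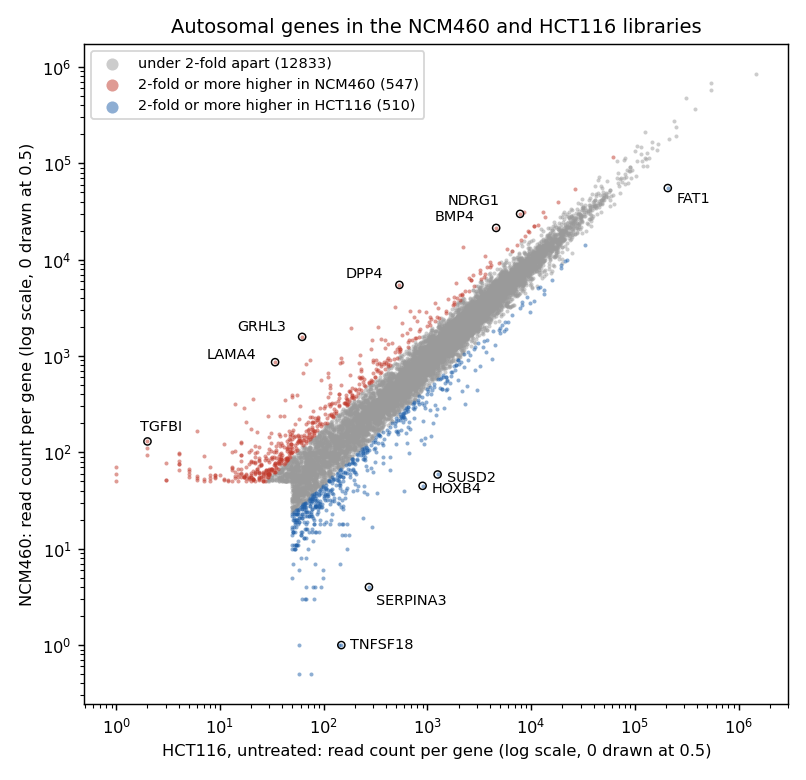
Read count of each of the 13890 autosomal genes in NCM460 (vertical, log scale) against untreated HCT116 (horizontal, log scale), with genes at least 2-fold higher in NCM460 in red (547) and in HCT116 in blue (510) and named examples circled. Most of the coloured points have few counts, and abundant genes such as FAT1, NDRG1 and BMP4 stand apart from the diagonal.

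The 18 genes silent on one side were divided equally, 9 silent in NCM460 and 9 in HCT116. TNFSF18, a cytokine of the TNF family, had 1 count in NCM460 and 148 in HCT116, a ratio of 137 with a counting interval of 24.2 to 5449. It had 2 counts or fewer in each of the 6 other libraries, HCT116 under hypoxia included, so the HCT116 library alone carried it. IL32, a proinflammatory cytokine gene, had 1 count in NCM460, 142 in HCT116 and 171 in HCT116 under hypoxia. NUPR1, a stress-induced chromatin protein gene, had 3 and 80 counts, and 7 in HCT116 under hypoxia. DCLK1, a kinase gene used as a marker of tuft cells, had 0 counts in NCM460 and 75 in HCT116. With 0 set to the floor of 3 counts it was 23.1-fold higher in HCT116, and its counting interval began at 18.4-fold. The protease gene PRSS33 had 0 and 58 counts, 17.9-fold higher in HCT116 by the same floor, with an interval from 14.1-fold. NRG1, which encodes a ligand of the ERBB receptors, had 1 and 58 counts. GGT5, VIM-AS1 and LOC100506083 completed the set with 3 counts each in NCM460 and 62, 66 and 67 in HCT116. GGT5 has close relatives in the GGT family and VIM-AS1 lies opposite VIM, so that reads of these genes could not be assigned with certainty.

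In the other direction, TGFBI, an extracellular matrix protein gene induced by TGF-beta, had 130 counts in NCM460 and 2 in HCT116, a ratio of 70.2 with an interval of 19.0 to 586. HIEC6, DLD1 and HCT8 had 1473, 9060 and 947 counts of TGFBI, and HCT116 under hypoxia had 233. BMP2, a ligand of the BMP pathway, had 111 and 2 counts, with 206 to 3311 in the other untreated lines. Its relative BMP4 was abundant in both and 5.02-fold higher in NCM460 (21382 and 4602 counts). SRGN, a proteoglycan gene of secretory granules, had 95 and 2 counts, with 30784 in HIEC6 and 6 and 8 in DLD1 and HCT8. OLR1, the receptor for oxidized LDL, had 78 and 3 counts, with 19286 in HIEC6. SLC12A5, a neuronal potassium chloride cotransporter gene, had 70 and 1 counts and 3 or fewer in each of the 6 other libraries. LAMA1, DLGAP3, TLR9 and TBC1D26 had 51 to 59 counts in NCM460 and 1 to 3 in HCT116. HCT116 under hypoxia had 220 counts of TLR9, 33 of DLGAP3, 30 of TBC1D26 and 5 of LAMA1. It had 56 of SRGN, 28 of BMP2 and 4 of OLR1, so several of these genes were not silent in both HCT116 libraries. All 18 genes had fewer than 200 counts in NCM460 and in untreated HCT116, so none of the on and off differences involved an abundant transcript.

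Among the genes with 200 or more counts in the higher library, the largest ratio towards NCM460 was that of GRHL3, a grainyhead-like transcription factor of surface epithelia. GRHL3 had 1582 counts in NCM460 and 62 in HCT116, a log2 ratio of 4.78 (interval 4.42 to 5.17), or 27.6-fold. It had 3421 counts in DLD1 and 2170 in HCT8, and 43 in HIEC6 and 39 in HCT116 under hypoxia, so that the NCM460 level sat with the DLD1 and HCT8 libraries. DPEP1, a membrane dipeptidase gene, had 319 counts in NCM460, 14 in HCT116, 1059 in HCT8 and 0 in HIEC6. OASL, an interferon-inducible gene, had 920 and 74 counts, a log2 ratio of 3.75. DPP4, the cell surface dipeptidase CD26, had 5478 counts in NCM460 and 537 in HCT116, a log2 ratio of 3.46, with 1 count in HIEC6, 277 in DLD1 and 426 in HCT8.

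Some of the genes higher in NCM460 had few counts outside this pair of libraries and HCT116 under hypoxia. ANXA10, an annexin gene of gastric epithelium, had 1971 counts in NCM460, 182 in HCT116 and 108 in HCT116 under hypoxia. It had 4 counts in HIEC6 and 0 in the 4 libraries of DLD1 and HCT8. TTN, the muscle gene titin, had 827 counts in NCM460, 67 in HCT116 and 54 in HCT116 under hypoxia, and at most 7 in each other library. CD33, which encodes a sialic acid-binding receptor of myeloid cells, had 346 and 42 counts, 97 in HCT116 under hypoxia and at most 22 elsewhere. HCT116 thus held lower but clear levels of ANXA10, TTN and CD33, which had at most 22 counts in each library of the other lines.

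Towards HCT116, the largest ratio among genes with 200 or more counts in the higher library was that of SERPINA3, an acute-phase protease inhibitor gene, with 4 counts in NCM460 and 273 in HCT116, a log2 ratio of -5.98 (interval -7.87 to -4.61). HCT116 under hypoxia had 55 counts of it. SLC15A1, the intestinal peptide transporter PEPT1, had 17 counts in NCM460, 293 in HCT116 and 282 in HCT116 under hypoxia, and 0 in all 5 libraries of the other lines. PRKAA2, the alpha-2 subunit of the energy sensor AMPK, had 40 and 600 counts, with 1309 in HCT116 under hypoxia and 2402 in HIEC6. LCN2, an iron-sequestering lipocalin gene, had 21 and 237 counts. TRHDE, ZBED2 and CSTA, a cystatin gene of squamous epithelium, had 66, 141 and 99 counts in NCM460 and 433, 939 and 665 in HCT116, ratios of 6.08, 6.17 and 6.22. GRIN2B, a glutamate receptor subunit gene, had 443 and 3034 counts and 8709 in HCT116 under hypoxia.

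Abundant genes also stood apart. FAT1, an atypical cadherin gene, had 55445 counts in NCM460 and 207873 in HCT116, 3.47-fold lower in NCM460, while DLD1, HCT8 and the 3 hypoxia libraries had 244650 to 291547. NDRG1, a stress-responsive gene that is a common marker of hypoxia, had 29922 counts in NCM460 and 7827 in HCT116, 4.13-fold higher in NCM460. HCT116 under hypoxia had 223010 counts of NDRG1, and the other untreated lines 1563 to 2586. HAS3, a hyaluronan synthase gene, was 6.56-fold higher in NCM460 (13495 and 2220 counts), and PALLD, an actin cross-linking protein gene, 4.03-fold (31585 and 8474 counts). DCBLD2, a membrane receptor-like gene, had 117652 counts in NCM460 and 61567 in HCT116, against 2072 to 5026 in HIEC6, DLD1 and HCT8. The pair thus shared a high DCBLD2 level and differed 2.06-fold within it.

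The HOXB cluster was a block of neighbouring genes that were lower in NCM460. HOX genes encode homeodomain transcription factors that specify position along the body axis, and the adult gut keeps a regional HOX pattern. Windows of 15 consecutive genes were followed along the autosomes, and 24 of 13572 windows had a median log2 ratio of -1 or less while 0 had one of 1 or more. These windows lay in 3 places, 8 each over the HOXB genes of chromosome 17 (lowest median -1.27), the histone genes of chromosome 6 (-1.15) and the olfactory receptor genes of chromosome 11 (-1.10). From SKAP1 to HOXB9 (chr17:46210804-46703720, GRCh37), 8 of 9 genes were at least 2-fold lower in NCM460, with a median log2 ratio of -1.98. The HOX lists were chosen after the values were seen, and 7 of the 9 HOXB genes counted, against the 3.67% over all genes, were at least 2-fold lower.

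HOXB4 had 45 counts in NCM460 and 899 in HCT116, a log2 ratio of -4.21 (interval -4.68 to -3.78). It had 586 counts in HCT116 under hypoxia, 58 in HIEC6, 1827 in DLD1 and 1854 in HCT8. HOXB4 was therefore low in both lines labelled normal and at least 586 in the 6 CRC libraries. HOXB8 followed the same order, with 316 counts in NCM460, 38 in HIEC6, 2290 in HCT116 and 1529 to 4753 in the other CRC libraries. HOXB6 (488 and 2419 counts), HOXB9 (211 and 902), HOXB3 (710 and 2878), HOXB5 (311 and 1183) and HOXB2 (11 and 54) had log2 ratios between -2.20 and -1.82. HOXB7 was lower by less than 2-fold (1106 and 2168 counts), and HOXB13, which lies apart from the rest of the cluster, had 684 and 604 counts, a log2 ratio of 0.29. In the HOXA cluster 0 of 10 genes were 2-fold apart and the median log2 ratio was -0.29. In the HOXC and HOXD clusters 1 of 9 genes was 2-fold apart, HOXD3 with 58 counts in NCM460 and 9 in HCT116.

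Replication-dependent histone genes were lower in NCM460 without exception. These genes supply the histones packed onto new DNA in S phase, and their mRNAs end in a stem-loop instead of a poly(A) tail. Of the 90 genes on the list, 46 reached 50 counts, all 46 were lower in NCM460, and 21 were at least 2-fold lower and 0 at least 2-fold higher. The median log2 ratio was -0.99, against 0.00200 over all 13890 genes. The summed level of the list was 3490 CPM in NCM460 and 7056 CPM in HCT116, and 1767 CPM in HCT116 under hypoxia. It was 11076 CPM in HIEC6, 9689 CPM in DLD1 and 9604 CPM in HCT8, so that NCM460 was the lowest of the untreated lines. Several of these genes are near-identical copies of each other, so the split of reads between single genes is uncertain, while their sum is less affected.

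The histone gene with the largest ratio was HIST1H2BM, of the H2B family, with 286 counts in NCM460 and 1436 in HCT116, a log2 ratio of -2.22. It was followed by HIST2H2BE (2847 and 9862 counts) and by the H3 genes HIST1H3A (452 and 1533) and HIST1H3J (1312 and 4447). Among further H2B genes, HIST2H2BF had 4368 and 13239, HIST1H2BJ 1814 and 5485, HIST1H2BK 6098 and 15834, and HIST1H2BO 5358 and 11514. H2B promoters are known for an octamer, ATTTGCAT, that is bound by POU-domain factors. Promoters of RefSeq (GRCh38.p14, 250 bases before to 50 after the start of the gene) were searched for it on both strands. It was found in 6 of the 10 H2B promoters matched for 11 genes (60%), in 14 of 41 promoters of the histone list (34.1%) and in 1.80% of all 27305 promoters. H2B genes for which no match was recorded were also lower in NCM460, among them HIST3H2BB (768 and 2258 counts) and HIST1H2BD (3552 and 9711). The stretches around the octamer are shown for the 6 H2B genes with a match. Each is read 5′ to 3′ along the gene with 30 bases on either side of the match, which is in capitals and is read on the opposite strand in HIST1H2BO.
HIST1H2BM (chr6:27814944-27815011, plus strand): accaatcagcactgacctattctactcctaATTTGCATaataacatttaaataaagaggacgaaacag
HIST1H2BJ (chr6:27132805-27132872, minus strand): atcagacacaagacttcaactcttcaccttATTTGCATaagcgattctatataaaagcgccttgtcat
HIST1H2BK (chr6:27146867-27146934, minus strand): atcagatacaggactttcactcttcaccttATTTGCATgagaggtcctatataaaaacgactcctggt
HIST1H2BO (chr6:27893246-27893313, plus strand): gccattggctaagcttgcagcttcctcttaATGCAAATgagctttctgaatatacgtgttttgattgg
HIST2H2BE (chr1:149886691-149886758, minus strand): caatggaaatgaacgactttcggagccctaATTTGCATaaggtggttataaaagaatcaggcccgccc
HIST2H2BF (chr1:149812382-149812449, minus strand): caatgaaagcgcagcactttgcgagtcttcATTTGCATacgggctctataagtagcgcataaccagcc
In 5 of these promoters 38 to 41 bases lay between the end of the octamer and the start of the gene. A match is a description of the sequence, and binding was not measured.

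Other genes of the cell cycle were shifted less than the histones. Of 18 DNA replication genes, 16 were lower in NCM460 and 1, CCNE2 (277 and 613 counts), by at least 2-fold, with a median log2 ratio of -0.34. CCNE2 encodes cyclin E2, which drives entry into S phase. The helicase subunit MCM5 had 4326 and 7174 counts and GINS2, of the same replicative complex, 1042 and 2040. Of 17 mitosis genes, 0 were 2-fold apart and the median log2 ratio was -0.14, with MKI67, the proliferation marker Ki-67, at 22100 and 28776 counts. Cell cycle phase was not measured, and its part in the histone levels was not tested.

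**Figure D4:**
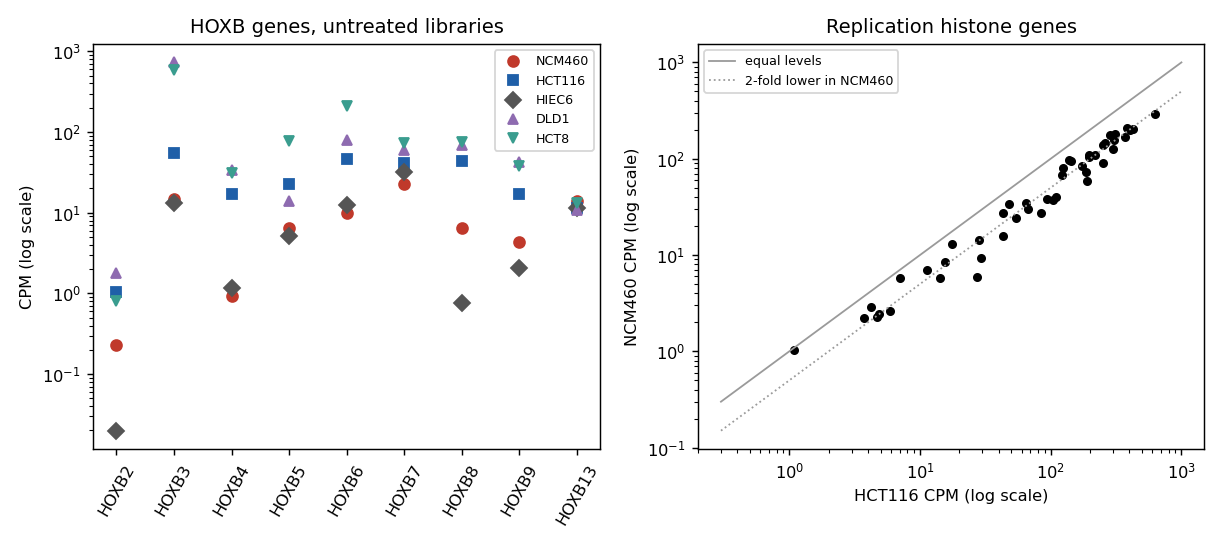
Left, CPM (log scale) of each HOXB gene in the 5 untreated libraries, to be compared within a gene; NCM460 (red circles) lies below HCT116 (blue squares) from HOXB2 to HOXB9 and beside it at HOXB13. Right, CPM in NCM460 against HCT116 (both log scale) for the 46 replication histone genes, all of which lie below the line of equal levels.

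Another of these blocks lay in the beta-globin and olfactory receptor region of chromosome 11, where transcription was seen in the pair and in HCT116 under hypoxia alone. Olfactory receptor genes encode odorant receptors and are silent in most tissues. From HBG2 to OR51A10P (chr11:5274418-5526835, GRCh37), 9 of 11 genes were at least 2-fold lower in NCM460, with a median log2 ratio of -1.14. OR51B5 had 1464 counts in NCM460, 3797 in HCT116 and 5882 in HCT116 under hypoxia, and at most 1 in each of the 5 other libraries. OR51B2 had 77, 370 and 277 counts in the same 3 libraries and 0 in the others. The annotated HBG2 gene spans this interval, and HBE1 and the receptor genes start inside it. The annotated OR51B5 gene also overlaps other receptor genes there. Reads of HBG2, HBE1 and the receptor genes therefore cannot be told apart with certainty. NCM460 thus carried transcripts of the region below the HCT116 level, with log2 ratios from -0.59 (HBE1) to -2.47 (OR51B8P).

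On chromosome 22, genes with large ratios towards HCT116 lay near genes that did not differ. From SMARCB1 to GGT1 (chr22:24129118-25024972, GRCh37), 5 of 14 genes were at least 2-fold lower in NCM460 and 1, BCRP1, was at least 2-fold higher. SMARCB1, a core subunit of the SWI/SNF chromatin remodeling complex, had 149 counts in NCM460 and 1090 in HCT116. It had 93 counts in HCT116 under hypoxia, 125 and 1117 in DLD1 without and with hypoxia, and 126 and 784 in HCT8, so its level also differed several-fold within a line. SUSD2, a membrane protein gene, had 59 and 1255 counts (19.7-fold), and 1007 in HCT116 under hypoxia. DDT, which encodes a relative of the cytokine MIF, had 14 and 162 counts, and GGT1, a gamma-glutamyltransferase gene, 124 and 640. CABIN1, between DDT and SUSD2, had 7805 and 8526 counts, a log2 ratio of -0.02. DDT, GSTT2 and the GGT genes have near-identical copies nearby, which leaves their counts uncertain.

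Laminin and collagen genes included members at least 2-fold apart. Laminins build the basement membrane on which epithelia rest, and collagens are the fibres and networks of the matrix. Of 11 laminin genes, a list chosen after the values were seen, 4 were at least 2-fold higher in NCM460 and 0 in HCT116, against 3.94% and 3.67% of all genes. LAMA4 had 864 counts in NCM460 and 34 in HCT116 (27.4-fold), with 159 in HCT116 under hypoxia, 1560 in HIEC6 and 2 and 1 in DLD1 and HCT8. LAMA3 (827 and 324 counts), LAMA2 (606 and 315) and LAMA1 were the others. The remaining laminin genes, LAMA5 (14039 and 15230 counts) among them, had log2 ratios from -0.13 to 0.79.

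Of 22 collagen genes, also listed after the values were seen, 10 were at least 2-fold higher in NCM460 and 3 in HCT116, against 3.94% and 3.67% of all genes. The summed level of the list was nevertheless lower in NCM460, at 749 CPM against 823 CPM in HCT116. COL1A2, a chain of fibrillar collagen I, had 393 and 49 counts, a log2 ratio of 3.11, and 724 in HCT116 under hypoxia. COL4A2 and COL4A1, the paired chains of basement membrane collagen IV, had 71 and 58 counts in NCM460 and 8 and 10 in HCT116. COL5A1 had 164 and 23 counts, against 41022 in HIEC6. COL6A3 had 239 and 41 counts, while the other collagen VI chains COL6A1 (8553 and 9889 counts) and COL6A2 (6212 and 7523 counts) differed by less than 1.2-fold. COL12A1 went the other way, with 3424 and 8232 counts.

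Both epithelial and mesenchymal genes included members higher in NCM460. All 14 epithelial genes that reached 50 counts were higher in NCM460, 2 of them by at least 2-fold, with a median log2 ratio of 0.31. For comparison, 6071 of 11756 protein-coding genes were higher in NCM460 by any amount. The 2 were the tight junction genes TJP1 (675 and 352 counts) and OCLN (313 and 168 counts), and KRT19 (72853 and 44643 counts), CLDN4 (20897 and 12447) and ELF3 (5667 and 3394) followed. Of 16 mesenchymal genes, 6 were at least 2-fold higher in NCM460 and 3 in HCT116, against 3.94% and 3.67% of all genes. FN1, which encodes fibronectin, had 2573 and 742 counts, a log2 ratio of 1.90, and TAGLN, an actin-binding protein gene, 155 and 72. The transcription factor genes TWIST1 (31 and 119 counts) and ZEB1 (126 and 369 counts), known repressors of epithelial genes, and S100A4 (3768 and 10571 counts) were lower in NCM460. Among its genes at least 2-fold apart, the mesenchymal list thus held FN1 and collagen genes on one side and TWIST1 and ZEB1 on the other. The collagen genes COL6A1 and COL6A2, also on the list, were slightly lower in NCM460. The summed level of the epithelial list was 6544 CPM in NCM460 and 5274 CPM in HCT116, and that of the mesenchymal list 554 and 643 CPM, so neither differed 2-fold.

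Genes of cholesterol and fatty acid synthesis were higher in NCM460 as a group. Cells raise these genes through SREBP transcription factors when sterols are short. All 21 genes were higher in NCM460, 5 by at least 2-fold (3.94% of all genes) and 0 lower, with a median log2 ratio of 0.72, which is 1.65-fold. MSMO1 had 10940 and 3562 counts (3.32-fold) and HMGCS1 6135 and 2608 (2.54-fold). FDFT1 (19478 and 9561 counts), INSIG1 (7079 and 3591) and SQLE (9343 and 4887) also passed 2-fold. FASN, the fatty acid synthase gene, had 212530 and 124032 counts, whereas ACLY (25602 and 25540) and ACACA (1486 and 1579) differed by less than 1.2-fold. The summed level was 10793 CPM in NCM460 and 6751 CPM in HCT116, above the 5105 to 5659 CPM of untreated HIEC6, DLD1 and HCT8. Under hypoxia it was 9321 CPM in HCT116, 8349 CPM in DLD1 and 9669 CPM in HCT8, so levels near that of NCM460 were also seen in other libraries. A sterol element, TCACNCCAC, was found in 0 of the 14 promoters of the list that could be matched and in 1.15% of all promoters, which says only that these letters are not in those windows.

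**Figure D5:**
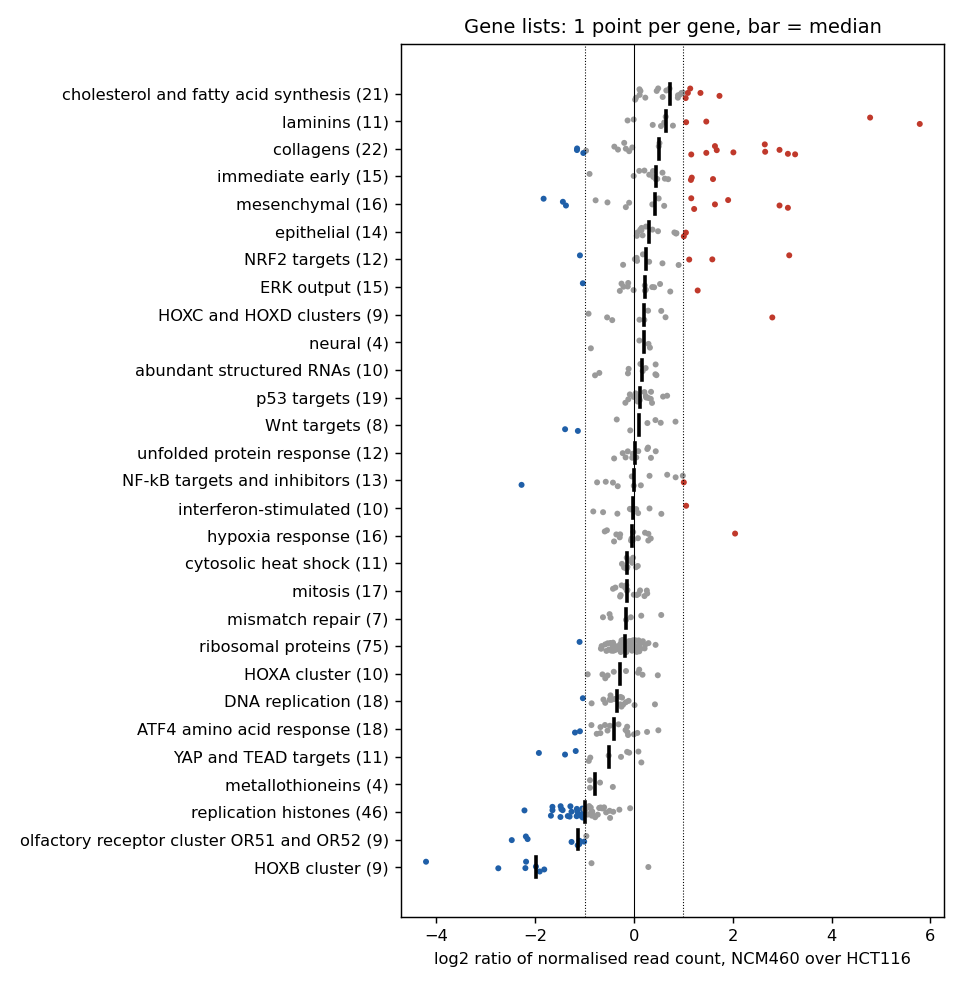
Log2 ratio of NCM460 over HCT116 for every gene of each list (1 point per gene, number of genes in parentheses, black bar at the median, dotted lines at 2-fold), with genes at least 2-fold apart in red or blue. HOXB genes (median -1.98) and replication histones (-0.99) lie to the left and cholesterol and fatty acid synthesis genes (0.72) to the right, while most lists are centred near 0.

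Targets of YAP and TEAD, the transcriptional arm of the Hippo pathway, were lower in NCM460 in 9 of 11 genes and at least 2-fold lower in 3, against 3.67% of all genes. These were CTGF (69 and 283 counts), TGFB2 (19 and 54) and CYR61 (448 and 1096), and AMOTL2 had 1844 and 3756 counts. Of 18 genes of the ATF4 amino acid response, 15 were lower in NCM460 and 2 at least 2-fold lower (3.67% of all genes), CHAC1 (678 and 1676 counts), a glutathione-degrading enzyme gene, and SLC7A11 (5088 and 11733 counts), a cystine transporter gene. All 4 metallothionein genes that reached 50 counts were lower in NCM460, with MT1E at 2919 and 5848 counts, and 0 reached 2-fold. Immediate early genes, which respond within minutes to growth factors, were higher in NCM460 in 13 of 15. EGR3 (230 and 82 counts), FOSB (456 and 219) and KLF4 (4734 and 2301) were at least 2-fold higher, against 3.94% of all genes, and KLF2 was lower (977 and 1969 counts).

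The hypoxia list did not follow NDRG1. Of 16 hypoxia response genes, 6 were higher and 10 lower in NCM460, and NDRG1 alone was 2-fold apart, with a median log2 ratio of -0.04. VEGFA, the angiogenic growth factor, had 2684 and 4369 counts, and ADM, which encodes adrenomedullin, 589 and 930. Their counts in HCT116 under hypoxia were 13107 and 30191. The NCM460 library therefore did not carry the hypoxia list at the level of the HCT116 hypoxia library, whose summed level was 34167 CPM against 4751 CPM in NCM460 and 4800 CPM in untreated HCT116.

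Several pathways hardly differed. The median log2 ratio was 0.11 for 19 p53 targets, with CDKN1A, the cyclin-dependent kinase inhibitor p21, at 18238 and 12375 counts, and 0 of them 2-fold apart. It was 0.01 for 12 genes of the unfolded protein response and -0.13 for 11 cytosolic heat shock genes, with 0 genes 2-fold apart in either list. Of 7 mismatch repair genes 0 were 2-fold apart, and MSH3, which was 411 and 686 counts in the pair, had 2298 to 3726 in HIEC6, DLD1 and HCT8. Of 75 ribosomal protein genes, 1 was 2-fold apart, RPS27 (1838 and 4260 counts), and the median log2 ratio was -0.19.

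Other lists were centred near 0 with single genes far from it. Among 13 NF-kB targets and inhibitors, the chemokine gene CXCL2 had 13 and 68 counts and the adhesion receptor gene ICAM1 814 and 437, with a median log2 ratio of -0.00431. Of 10 interferon-stimulated genes, ISG15, a ubiquitin-like modifier gene, was 2-fold higher (3376 and 1755 counts). Of 8 Wnt targets, SP5 (50 and 142 counts) and NOTUM (372 and 883), a Wnt-inactivating enzyme gene, were at least 2-fold lower, while AXIN2 was 1.79-fold higher (1528 and 922). AXIN2 had 38325 and 32664 counts in DLD1 and HCT8, so that the pair was low together. Of 12 NRF2 targets, AKR1C3 (237 and 29 counts), AKR1C1 and HMOX1 (1529 and 761) were at least 2-fold higher in NCM460, and SLC7A11, which is also on the ATF4 list, was lower. Reads of AKR1C1 and AKR1C3 can be shared, since these genes are close copies. Of 15 genes of ERK output, EPHA4 (864 and 382 counts) was higher and DUSP6 (8849 and 19590 counts), an ERK phosphatase gene, lower by at least 2-fold. The host gene of the circRNA studied, PLCE1, had 468 and 649 counts, a log2 ratio of -0.36, and RPS3, a ribosomal protein gene, had 145825 and 145291, a log2 ratio of 0.12.

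Genes of tRNAs and of many snRNAs were lower in NCM460, whereas snoRNA and miRNA genes showed no such shift as groups. Of 11 tRNA genes, 9 were at least 2-fold lower and 0 higher by any amount, with a median log2 ratio of -1.59. TRL-TAA4-1, a leucine tRNA gene, had 459 counts in NCM460, 1381 in HCT116 and 610 in HCT116 under hypoxia. Of 18 spliceosomal and other snRNA genes, 6 were at least 2-fold lower, with a median log2 ratio of -0.81. RN7SK, an abundant RNA that restrains transcription elongation, had 846975 and 1487906 counts. It accounted for most of the reads on snRNA genes. Of 144 snoRNA genes 4 were at least 2-fold higher and 4 lower, and of 31 miRNA genes 5 were higher and 2 lower, with a median log2 ratio of 0.28. RPPH1, the RNA of RNase P, was higher in NCM460 (681343 and 543370 counts). The single Y RNA gene (384 and 689 counts) and the single vault RNA gene (27 and 50) were lower. Such RNAs are shorter than the usual fragment of an RNA-seq library and come in many copies, and the part of fragment size and of copy assignment in these values was not tested. By gene length, the median log2 ratio went from -0.0883 in the shortest sixth of genes to 0.0455 in the longest. Long noncoding RNAs were at least 2-fold lower in 123 and higher in 67 of 1044 genes, and protein-coding genes in 312 and 416 of 11756.

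The level in the other lines was also read. Of the 547 genes at least 2-fold higher in NCM460, 204 (37.3%) were at least as high in HIEC6, DLD1 or HCT8, and 24 (4.39%) had 3 or fewer counts in all of those lines. Of the 510 genes at least 2-fold higher in HCT116, 296 (58.0%) were as high in another line, and 30 (5.88%) were at 3 or fewer counts in the other lines. Over all 13890 genes, 69.0% were at least as high in one of the other lines as in NCM460 and 70.2% as in HCT116. Each set was chosen for a high level in the library it is compared with, which lowers its share. The shares therefore cannot be weighed against those of all genes. Among the 12833 genes under 2-fold, 125 (0.974%) had 3 or fewer counts in the other lines.

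The responses of DLD1 and HCT8 to hypoxia, which share no library with the pair, show how variable the same genes were within a line. Of the 547 genes higher in NCM460, 319 reached 50 counts in DLD1 with or without hypoxia, and 64 of them (20.1%) were at least 2-fold higher under hypoxia, against 5.44% of all genes. In HCT8, 80 of 368 (21.7%) were at least 2-fold higher under hypoxia, against 8.49%. Of the genes higher in HCT116, 36 of 363 (9.92%) and 52 of 371 (14.0%) were at least 2-fold higher under hypoxia in DLD1 and HCT8. For lower levels under hypoxia the shares in DLD1 were 14 of 319 and 22 of 363, against 2.10% of all genes, and in HCT8 35 of 368 and 41 of 371, against 6.79%. All 8 shares lay above their background, most so for genes higher in NCM460 and higher under hypoxia. Genes at least 2-fold apart were more often of low count, as given above, and the DLD1 hypoxia library shares a run label with NCM460 whereas the HCT8 hypoxia library does not. The part of counts and of runs in these shares was not tested.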

How the data were processed

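Total RNA of each line was depleted of ribosomal RNA and sequenced on an Illumina HiSeq 3000. The authors deposited raw read counts per gene in 1 table of 54261 genes and 8 libraries, without normalization. Their methods name GRCh37.p13 and the submitters' processing notes name GRCh38 and HISAT2 2.0.4. The gene counter, the strand setting and the treatment of reads with several matches are not given in the sources used here. Columns were assigned by the sample titles, and each line formed a group of 1, so no test was run.

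Library sizes were scaled by TMM over the 8 libraries (edgeR 4.0.16 in R 4.3.3). Ratios were ratios of CPM, with exact 95% Clopper-Pearson intervals (SciPy 1.17.1), and 0 counts were set to a floor of 3. RefSeq gave chromosomes for 51476 genes by symbol, gene ID or older symbol; 345 genes with 50 counts could not be placed and 480 on sex chromosomes or mitochondrial DNA were left out. GENCODE release 44 lifted to GRCh37 gave positions for 13140 of the 13890 genes. The intervals were tested on simulated counts that held counting error only, so the wider spread between real libraries was not covered. Named genes were those with 3 or fewer against 50 or more counts, the 15 largest ratios per direction with 200 or more counts, up to 4 genes per list and any list gene 2-fold apart, PLCE1 and RPS3. BMP4, HBE1, FAT1, HAS3, PALLD, DCBLD2, the chromosome 22 genes, TRL-TAA4-1 and further list genes were named after their values were seen. Some of the genes this rule names are not reported here. The gene set and lists were chosen with earlier results of these data known. Alternatives were 4 other scalings (DESeq2 1.42.0 size factors among them), other filters, and other limits.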

Additional observations from a re-analysis of the deposited data

How the results depend on the processing

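Under total counts, TMM of the pair alone, DESeq2 size factors and upper-quartile scaling, the 2-fold counts stayed within 1.5 times of those reported, as they did with the 345 unplaced genes added. These scalings shifted the median log2 ratio of all genes by -0.0240 to 0.0346, and each moved every log2 ratio by the same amount. Of 912 values of single genes and lists recomputed under them 0 changed sign beyond 2-fold. Shifts this small cannot produce such a change, so this count does not test robustness. List medians near 0 did change sign. That of the unfolded protein response turned negative under total counts, and that of the NF-kB list turned positive under DESeq2 size factors. The count filter and the fold limit moved the counts. With 10 or more counts, 1690 genes were at least 2-fold higher in NCM460 and 1568 in HCT116 (17.9%, median absolute log2 ratio 0.329). With 200 or more counts these were 241 and 220 (4.07%, 0.225), and with 1 or more counts 3728 and 3345 (27.9%, 0.474). At a limit of 1.5-fold, 1330 and 1361 genes (19.4%) were apart, and at 4-fold 121 and 103 (1.61%). With the 13890 genes used for every pair, the 9 other pairs of untreated lines ran from 21.8% to 45.4%. Genes silent on one side were 64 with a limit of 10 counts and 0 when 200 counts were asked of the other library. No paired analysis was possible because each group held 1 library and no test was run. With 1 library a line, differences between lines and between cultures, libraries or runs of 1 line cannot be told apart, and low counts widen ratios.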
